A study of Mus musculus with 24 samples.

Results

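Adult mouse dorsal root ganglia after a peripheral lesion, a setting of axon regrowth, were compared with dorsal root ganglia of the E12.5 embryo, a setting of first axon growth. The comparison used 6 of the 24 libraries of the series, 3 per group, taken by their labels, and every gene of the deposited table. Of 20782 genes, 14830 were tested. The lesion group was adult L4-5 ganglia labelled "Peripheral lesion" and the embryonic group was lumbar ganglia at E12.5; both carry the source label DRG neuron, and no transgene or agent is named for either. Another group, adult L4-5 ganglia labelled "Sham operated" (3 libraries), is given beside many of the named genes as the adult level without a lesion. The sources used here do not give strain, sex, pooling of animals or the time between lesion and collection. The protocol text says that cells were sorted, lysed in Qiazol and made into TruSeq V2 libraries from 10 ng of total RNA; it is the same on every sample, and whether operated and embryonic ganglia were sorted is not stated. Nothing says that the libraries came from separate animals, so p-values measure only the spread between these samples. The series as a whole concerns alpha2delta2, the calcium channel subunit encoded by Cacna2d2, and axon regeneration.

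Dorsal root ganglia hold the cell bodies of the neurons that carry touch, temperature, pain and limb position to the spinal cord. In the embryo these neurons leave the cell cycle, extend a growth cone and elongate an axon before they form synapses. An adult neuron has stopped doing so, but cutting its peripheral axon starts a transcriptional program, with Atf3, Jun and Sox11 among its factors, that goes with a return to axon growth. Whether regrowth uses the same genes as first growth is the question this comparison addresses.

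Values are read counts that the authors divided by 1 factor per library, called normalized reads below. Differences are lesion minus E12.5 on the log2(value + 1) scale with SE, from limma with Benjamini-Hochberg adjustment over all 14830 genes, called at an adjusted p under 0.05. Adult lesioned and embryonic ganglia differed in most of the transcriptome. After lesion 5972 genes were higher (40.3% of those tested) and 6030 lower (40.7%), so 12002 (80.9%) differed in one direction or the other. Of these, 2312 (15.6%) were at least 4-fold higher and 1457 (9.82%) at least 4-fold lower. The 2 groups of 3 libraries did not overlap in 12441 genes (83.9%). For 4873 genes (32.9%) the 95% interval of the difference lay within 2-fold either way. The median difference over all genes was -0.03. Counts for gene lists below are to be read against these shares, and in every list a called gene is the common case.

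**Figure D1:**
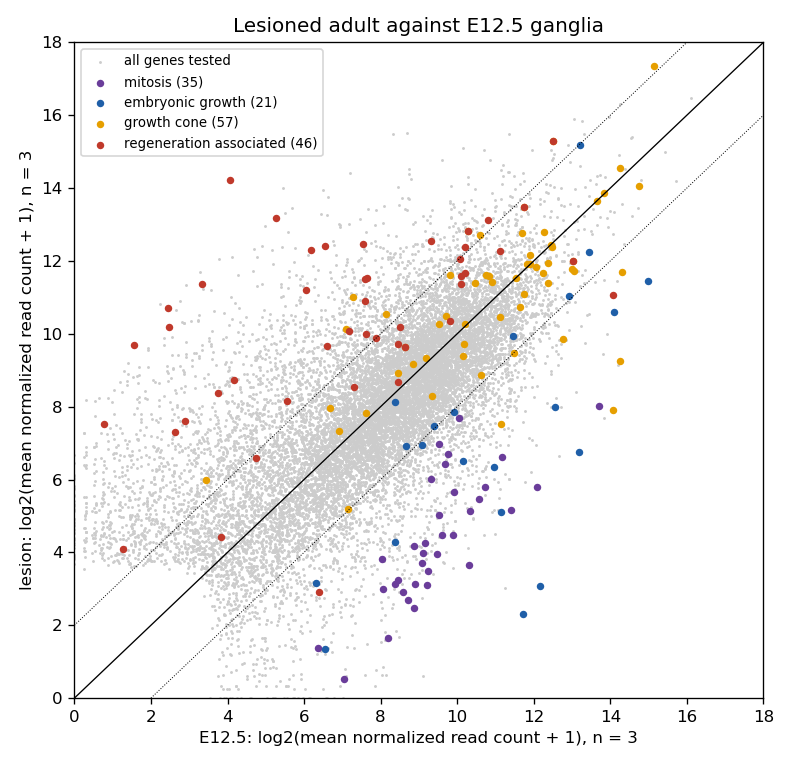
Mean level of each tested gene at E12.5 (horizontal axis) and after lesion (vertical axis), both as log2(normalized reads + 1), 3 libraries per group. The solid line marks equal levels and the dotted lines 4-fold differences; mitosis genes (35) lie below the line, most regeneration-associated genes (46) above it, and growth cone genes (57) on both sides.

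The lesion libraries held 7.45 to 21.0 M reads and the E12.5 libraries 13.6 to 18.3 M. Pearson's r of log2 values, a description across genes within these libraries, was 0.988 to 0.992 between lesion libraries, 0.986 to 0.991 between E12.5 libraries and 0.873 to 0.883 between the groups. The third E12.5 library stood apart from the other two: it was higher in Hmga2, Igf2, Vcan and Pdgfra and lower in Sox2, Dll1 and Sall1. Without it 6108 genes were higher and 6111 lower. In 113 genes a lesion or E12.5 value equalled a trimmed mean over all 24 libraries, or a single value shared across groups, and not a measurement of its own; these genes (54 of them above the expression filter) were left out of the comparison. In bulk tissue, fewer cells of a type and less RNA per cell cannot be told apart.

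Markers of sensory neurons were present in both groups. Their summed level was 40483 to 43162 normalized reads after lesion, 41789 to 44227 after sham surgery and 7892 to 10888 at E12.5. The 16 general neuron markers summed to 323062 to 364190 after lesion, 358977 to 391301 after sham surgery and 62180 to 96021 at E12.5. Their median difference was 2.08, and that of the 13 sensory neuron markers 2.15. The satellite glia list summed to 67215 to 74441 after lesion and 15261 to 16755 at E12.5, and the myelinating Schwann cell list to 73990 to 102169 against 1783 to 2543, so libraries whose source label names neurons also hold RNA of glia. The 29 spinal cord neuron markers summed to 270 to 332 after lesion, 201 to 237 after sham surgery and 4304 to 5335 at E12.5. Of these 29, 22 passed the filter, 4 were below it and 3 were left out for replaced values; a marker near 0 in adult ganglia passes only through E12.5, so no count of called markers is read from this list. Of the 22, 7 were listed at 0 in every lesion library, among them Slc6a5, Dmrt3, Sox14, Evx1, Lhx4 and Lbx1. Neural tube progenitor markers summed to 1224 to 1364 after lesion and 8060 to 13551 at E12.5. The spinal cord and neural tube sums include genes with replaced values (3 of 29 and 8 of 25), so their E12.5 levels are uncertain. These spinal cord and neural tube sums were higher at E12.5, as were several lists below, and their part in those results was not tested. The neuron sums were lower at E12.5. Their part in neuronal genes that were higher after lesion, such as Map1b, Stmn2, Tubb3 and Gap43, was not tested either.

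**Figure D2:**
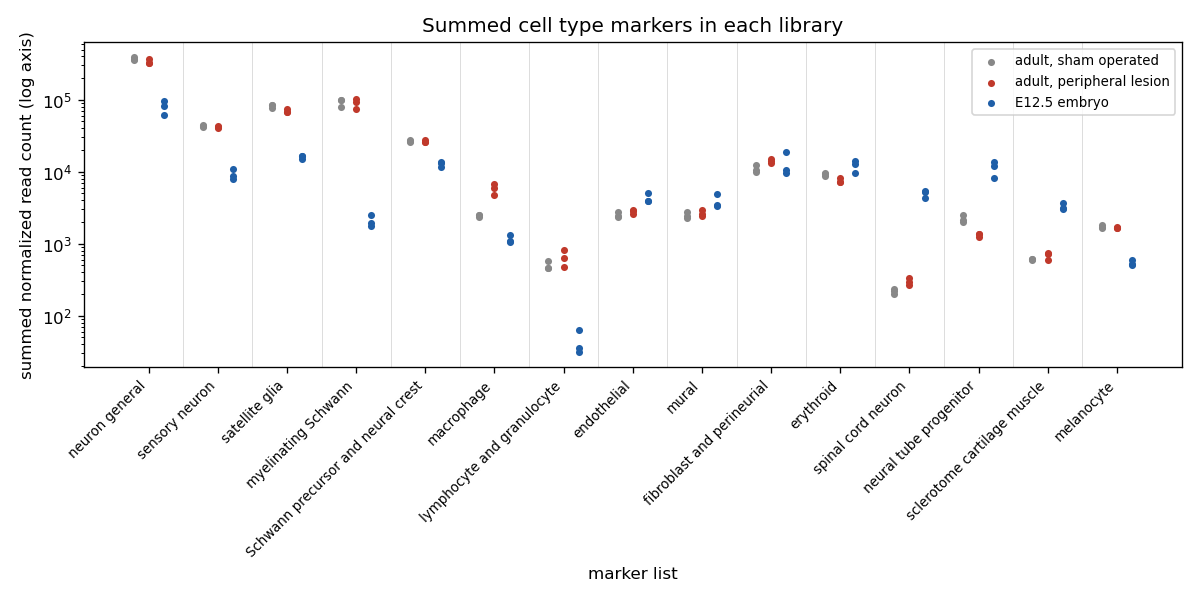
Summed level of cell type marker lists (normalized reads, log axis) in each lesion, sham and E12.5 library, 1 point per library. Neuron, myelinating Schwann cell and macrophage sums are lowest at E12.5, and the spinal cord, neural tube and sclerotome sums are highest there. The last 3 include genes with replaced values (3 of 29, 8 of 25 and 7 of 20).

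**Figure D3:**
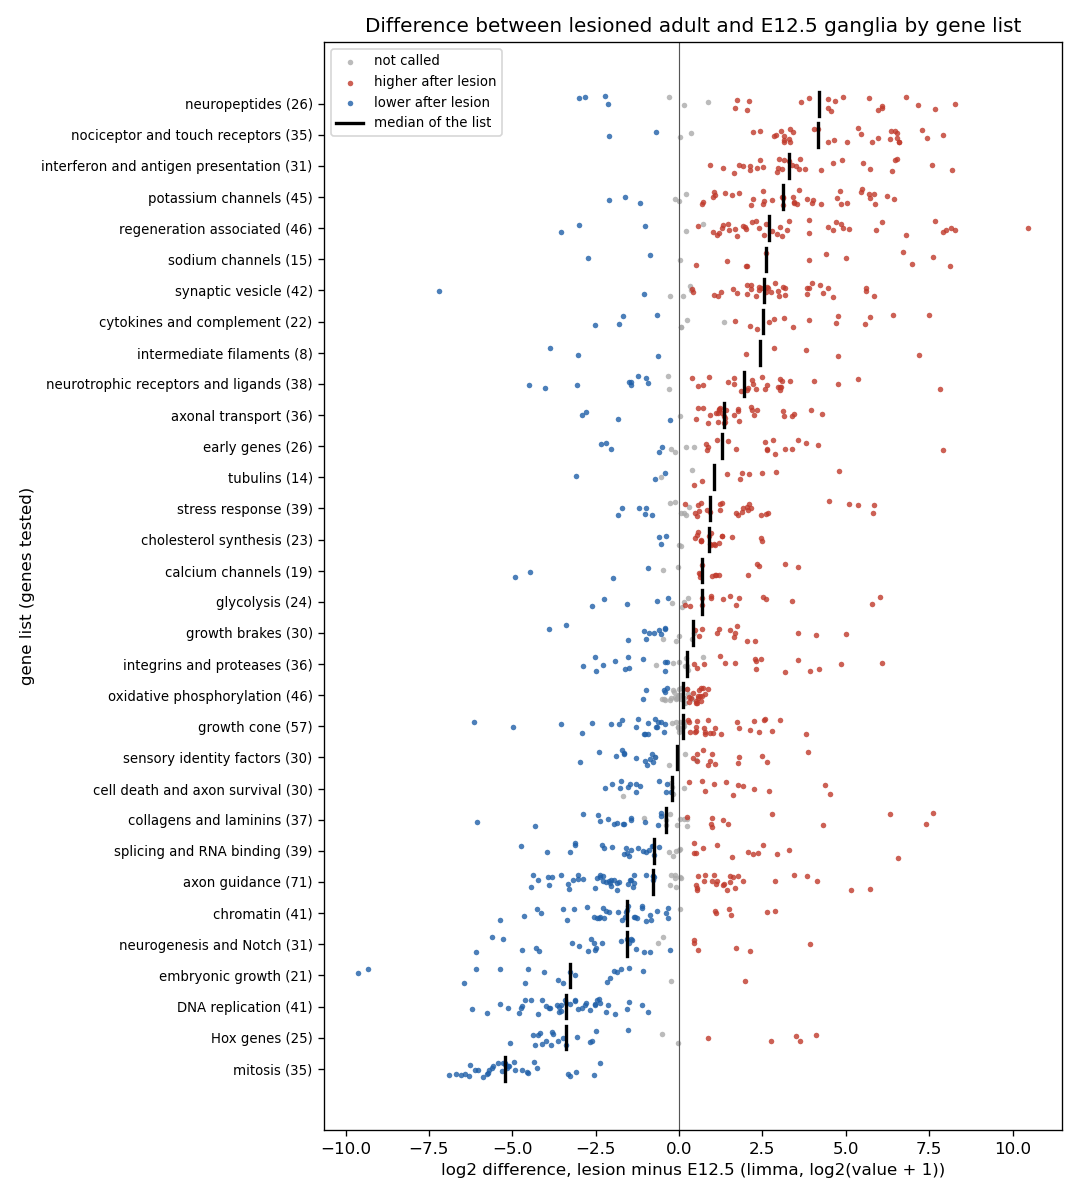
Lesion minus E12.5 difference (log2, horizontal axis) of each tested gene, 1 point per gene, by gene list (vertical axis, genes tested in brackets), coloured by the limma call, with the list's median as a bar. All mitosis and DNA replication genes lie on the lower side and all interferon and antigen presentation genes on the higher side.

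The regeneration-associated list holds genes known from injured sensory neurons. Of its 50 genes 46 were tested, and 41 were higher after lesion than at E12.5, 29 of them at least 4-fold; 3 were lower and 2 were not called. The median difference was 2.69 against -0.03 over all genes, of which 40.3% were higher and 15.6% at least 4-fold higher. Vip, Fgf2, Il6 and Reg3b were below the filter. Members near 0 at E12.5, such as Gal, Nts and Crh, pass the filter only through the lesion libraries, so the counts of higher genes were partly fixed by it. The list is made of genes known from injury, so their rise against sham is no independent result. Against sham, 45 were tested, of which 41 rose and 2 fell (background: 3049 genes higher, 21.0%, and 2948 lower, 20.3%, of 14552); that comparison shares the lesion libraries, so its values are only set beside the others. Over all 50 genes, those below the filter included, the mean at E12.5 was below that of sham ganglia for 35 and above that of lesioned ganglia for 4. So most of this list had a lower mean in the growing embryonic ganglion than in the adult one that had not been cut. Such an order was not particular to this list. It held for 13 of 16 general neuron markers, 31 of 36 axonal transport genes and 39 of 42 synaptic vesicle genes. For growth cone genes it held in 26 of 57 and for chromatin genes in 7 of 41. The share over all genes was not counted, and E12.5 and sham were not tested against each other.

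Sprr1a, a small proline-rich protein that promotes neurite outgrowth, differed most of the tested members. Its promoter is shown because the gene is the extreme of the comparison and because AP-1, the dimer of Jun with Fos or ATF family proteins, is part of the injury program. The sequence runs 5′ to 3′ from 250 bases before to 20 bases after the RefSeq start (GRCm38.p6, chr3:92485862-92486131, minus strand), with matches to the AP-1 motif TGANTCA in capitals.
Sprr1a promoter: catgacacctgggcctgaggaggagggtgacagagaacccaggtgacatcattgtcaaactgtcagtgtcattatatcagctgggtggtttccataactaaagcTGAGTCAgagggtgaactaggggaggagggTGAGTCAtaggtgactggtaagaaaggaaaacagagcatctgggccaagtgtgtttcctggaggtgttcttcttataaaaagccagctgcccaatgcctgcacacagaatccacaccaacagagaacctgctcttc
Both matches read TGAGTCA, at -146 to -140 and at -116 to -110 from the start. The motif TGANTCA, in which N is any base, searched on both strands in windows of 300 bases (250 before to 50 after the start), occurred in 5 of 42 windows (11.9%) of the 34 regeneration-associated genes that matched the table, and in 7.81% of all 32851 windows. The CRE motif TGACGTCA, the cyclic AMP response element, occurred in 1 of the 42 (2.38%) and in 1.79% of all. A match describes letters only and says nothing of binding.

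Sprr1a stood at 23731, 14642 and 19037 normalized reads in the lesion libraries, at 409, 355 and 643 after sham surgery and at 8.23, 6.42 and 32.4 at E12.5. Every lesion library was far above every other, and the E12.5 libraries were far below sham. The difference from E12.5 was 10.48 ± 0.51 (adjusted p = 5.47e-07) and that from sham 5.37 ± 0.30 (adjusted p = 0.000138). The third E12.5 library was the highest of its group, and without it the difference from E12.5 was 11.15. Atf3, the bZIP factor that marks injured sensory neurons, stood at 11051, 7089 and 9482 after lesion, 524, 566 and 579.8 after sham surgery and 32.9, 27.6 and 52.6 at E12.5. The order was again lesion, sham, E12.5, with no overlap, and the difference from E12.5 was 7.92 ± 0.25 (adjusted p = 6.80e-08). Gal, the neuropeptide galanin, stood at 1254, 736 and 1486 after lesion, 104, 68.7 and 148 after sham surgery and 6.04, 3.21 and 4.33 at E12.5, a difference of 7.69 ± 0.30 (adjusted p = 1.63e-07). It thus had next to no reads in the embryo, while at E17.5 it averaged 166 ± 36.7 (SD, n = 3).

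Other secreted signals and receptors of the list followed this order. The neuropeptide Nts (neurotensin) stood at 2079, 1242 and 1651 after lesion, 146, 198 and 122 after sham surgery and 4.39, 2.57 and 6.49 at E12.5, a difference of 8.27 ± 0.30. Crh, corticotropin-releasing hormone, differed by 6.81 ± 0.40, with 8.86, 19.0 and 18.9 normalized reads after sham surgery and 0, 0.642 and 1.44 at E12.5. Csf1, the macrophage colony stimulating factor that injured neurons release, stood at 3612, 2276 and 3077 after lesion, 368, 393 and 459.9 after sham surgery and 171, 217 and 207 at E12.5. Among receptors, Cckbr (a cholecystokinin receptor) differed by 8.15 ± 0.26, the orphan receptor Gpr151 by 7.99 ± 0.24 and Itga7, the laminin-binding integrin subunit, by 6.10 ± 0.19. None of these overlapped between the groups, and each was also lower at E12.5 than in sham ganglia. Npy did not follow the order: it stood at 11.8, 11.7 and 15.5 after sham surgery and at 15.9, 17.3 and 17.3 at E12.5, close to each other, against 512, 214 and 558 after lesion.

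**Figure D4:**
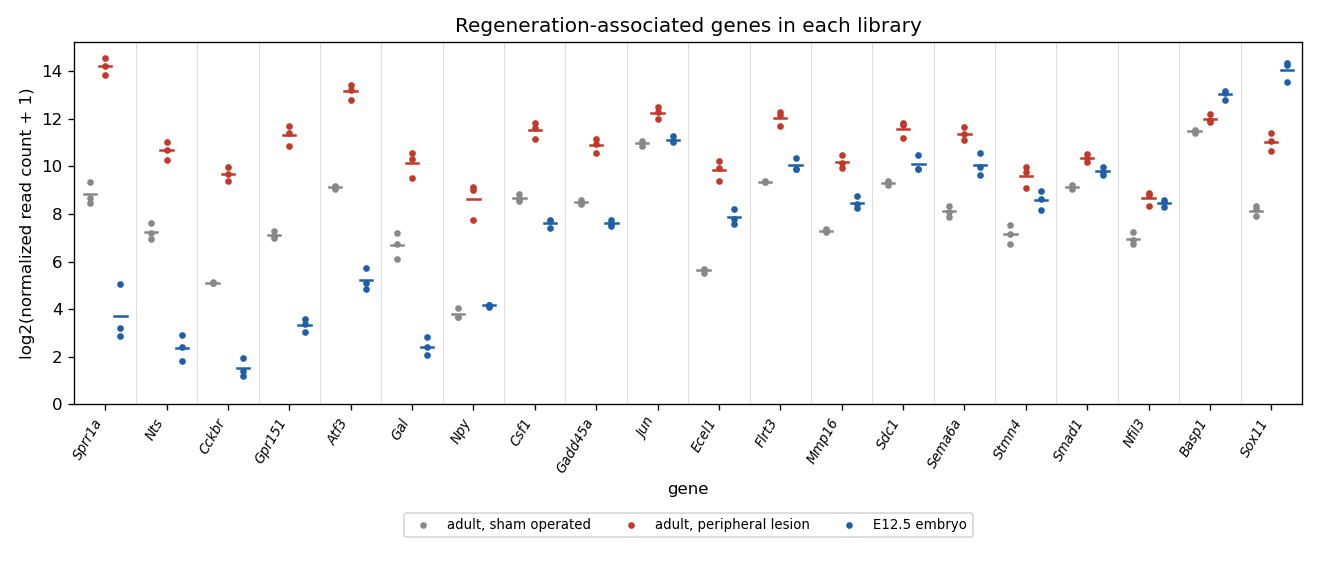
Levels of regeneration-associated genes (log2 of normalized reads + 1, vertical axis) in each sham, lesion and E12.5 library, 1 point per library, with the group mean as a bar. For Sprr1a, Atf3 and Gal the E12.5 points lie below the sham points; for Ecel1 and Sema6a they lie between sham and lesion; for Sox11 they lie above the lesion points.

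For a second set of the list the E12.5 libraries lay above the sham libraries and below the lesion libraries; E12.5 and sham were not tested against each other. Ecel1, a membrane metallopeptidase, stood at 45.3, 49.0 and 51.0 after sham surgery, 219.6, 292 and 191 at E12.5 and 1177, 675 and 964 after lesion. Sema6a, a transmembrane semaphorin, stood at 236, 273 and 323 after sham surgery, 787, 992 and 1516 at E12.5 and 3174, 2179 and 2584 after lesion. The groups did not overlap for either gene, and the lesion minus E12.5 differences were 1.98 ± 0.22 and 1.31 ± 0.24. Flrt3, an adhesion protein of growing axons, stood at 648, 667 and 641 after sham surgery and 947, 951 and 1309 at E12.5 and differed from E12.5 by 2.00 ± 0.18. The membrane metalloproteinase Mmp16 stood at 162, 148 and 158 after sham surgery and 304, 341 and 435 at E12.5 (1.69 ± 0.17), and the syndecan Sdc1 at 649, 591 and 674 after sham surgery and 944, 957 and 1409 at E12.5 (1.49 ± 0.21). Stmn4, a stathmin that binds tubulin, stood at 144, 184 and 106 after sham surgery, 399.6, 497 and 288 at E12.5 and 988, 543 and 865 after lesion. Its lesion and E12.5 values lie close, with a difference of 1.00 ± 0.26 (adjusted p = 0.0072).

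Gap43 and Jun, both widely used as growth markers, had E12.5 values that overlapped those of sham ganglia. Gap43, the growth-associated membrane protein, stood at 13147, 9330.0 and 11649 after lesion, 3052, 4166 and 3101 at E12.5 and 4576, 4405 and 3989 after sham surgery. The lesion libraries were highest; the difference from E12.5 was 1.73 ± 0.16 (adjusted p = 2.05e-05). Gap43 averaged 12266 ± 788 (SD, n = 3) at E17.5. Jun stood at 5744, 4063 and 4908 after lesion, 2059.6, 2147 and 2489 at E12.5 and 2119, 1874 and 2028 after sham surgery, a difference from E12.5 of 1.13 ± 0.13. Stat3, the cytokine signalling factor, differed by 3.23 ± 0.09, Klf6 by 1.45 ± 0.11 and Klf7 by 2.40 ± 0.09.

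A few members were close in lesioned and embryonic ganglia while above sham. Smad1, which transmits BMP signals and is needed for sensory axon growth, stood at 1472, 1169 and 1309.6 after lesion, 872, 996 and 805 at E12.5 and 565, 531 and 596 after sham surgery. Its difference from E12.5 was 0.56 ± 0.11 (95% interval 0.30 to 0.82), called and within 2-fold. Nfil3, a bZIP repressor induced with regeneration, stood at 471, 319 and 444 after lesion, 364, 380.3 and 308 at E12.5 and 105, 118 and 151 after sham surgery. Its lesion and E12.5 values overlapped, the interval was -0.16 to 0.59, and it was not called (adjusted p = 0.247). Without the second lesion library the difference was 0.39 and called (adjusted p = 0.0237).

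The 3 members lower after lesion than at E12.5 were Sox11, Basp1 and Arg1. Sox11, a SoxC factor that sensory axons need both to develop and to regenerate, stood at 20428, 19641 and 11852 at E12.5, 2687, 1588 and 2160.1 after lesion and 290.3, 238 and 318 after sham surgery. The lesion level lay above sham and below E12.5 with no overlap: the difference from sham was 2.90 ± 0.19 (adjusted p = 9.99e-06) and that from E12.5 -3.00 ± 0.25 (adjusted p = 1.03e-05). Basp1, a growth cone membrane protein related in function to Gap43, stood at 8701, 9282 and 7037 at E12.5, 4637, 3722 and 3994 after lesion and 2892, 2961 and 2715 after sham surgery. Its difference from E12.5 was -1.01 ± 0.13. Arg1, the arginase of polyamine synthesis, stood at 10.1, 5.01 and 4.63 after lesion and 93.3, 75.8 and 77.9 at E12.5, a difference of -3.53 ± 0.31. Spinal cord and neural tube marker sums were also higher at E12.5, as given above, and their part in these differences was not tested.

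Of 57 growth cone, actin and adhesion genes tested, 25 were higher after lesion, 21 lower and 11 not called, with a median difference of 0.11. Both shares are near those of all genes (40.3% higher and 40.7% lower). The interval lay within 2-fold for 27 of the 57 (32.9% of all genes). At least 4-fold, 8 were higher and 6 lower (15.6% and 9.82% of all genes). Against sham, 32 of the 57 rose and 7 fell (21.0% and 20.3% of all genes).

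Among the members within 2-fold, 6 with differences near 0 are given here, chosen after their values were seen; other actin regulators of the list differed several-fold, as given below. Cfl1, the actin-severing protein cofilin, stood at 13700.1, 11992 and 12646 after lesion and 13019, 13674 and 12273 at E12.5. The libraries overlapped, and the difference was -0.02 ± 0.08 (95% interval -0.22 to 0.17, adjusted p = 0.798). Tmsb4x, the actin monomer-binding thymosin, stood at 15689, 13473 and 15661 after lesion and 14041, 15958 and 13610.0 at E12.5, an interval of -0.19 to 0.27. Enah, which extends filaments at filopodial tips, had an interval of -0.25 to 0.21, the GTPase Rhoa -0.23 to 0.22, the doublecortin-like kinase Dclk1 -0.23 to 0.24 and the filopodial GTPase Cdc42 -0.27 to 0.11. For these 6 genes lesioned and embryonic libraries overlapped. After sham surgery Cfl1 stood at 14446, 14497 and 12882 and Tmsb4x at 14599.8, 14077 and 12331. The 2 cytoplasmic actins went opposite ways by small amounts: Actg1 differed by 0.30 ± 0.07 (adjusted p = 0.00458) and Actb by -0.69 ± 0.08 (adjusted p = 7.84e-05). The counting of reads that actins, or tubulins, have in common is not described, which makes the values of such near-identical genes uncertain.

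Ncam1, the neural cell adhesion molecule, was close in lesion and embryo and above sham. It stood at 3927, 3485 and 3486 after lesion, 3920.0, 4946 and 3875 at E12.5 and 1904, 2192 and 2438 after sham surgery. The interval against E12.5 was -0.48 to 0.04 and the difference from sham 0.74 ± 0.09 (adjusted p = 2.88e-05). It was not called against E12.5 with all libraries (adjusted p = 0.101) and was lower after lesion without the third E12.5 library (-0.28, adjusted p = 0.0301).

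The genes furthest above E12.5 in this list were Gsn, the actin-severing protein gelsolin (3.81 ± 0.26), and Arpc1b, a subunit of the Arp2/3 complex (3.02 ± 0.11). Stmn2, a stathmin that regulates microtubules in growing axons, stood at 46151, 35957 and 39079.7 after lesion, 5763, 6859 and 4889 at E12.5 and 31263, 30609 and 29749 after sham surgery. Map1b, the microtubule-associated protein of extending axons, stood at 168375, 167741 and 163613 after lesion, 36698, 42124 and 28839.9 at E12.5 and 122057, 144440.0 and 152047 after sham surgery. Both genes were several-fold higher in either adult group than in the embryo, with differences of 2.80 ± 0.14 and 2.23 ± 0.14. General neuron markers had a median difference of 2.08, and the part of neuron number in these differences was not tested. The adhesion molecule L1cam differed by 2.55 ± 0.14.

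The member furthest below E12.5 was Dcx, the microtubule protein doublecortin of young neurons. It stood at 18570.1, 20724 and 12214 at E12.5, 247, 257 and 210.5 after lesion and 173, 145 and 177 after sham surgery. The difference from E12.5 was -6.14 ± 0.19 (adjusted p = 6.59e-08), against one of 0.53 ± 0.12 from sham (adjusted p = 0.00352). At E17.5 Dcx averaged 11084 ± 2197 (SD, n = 3). Marcksl1, an actin-binding substrate of protein kinase C, stood at 20586, 20282 and 17514 at E12.5, 726, 528 and 587 after lesion and 350.3, 278 and 304 after sham surgery, a difference of -4.99 ± 0.13. Its relative Marcks differed by -2.62 ± 0.09, the filopodial bundling protein Fscn1 by -2.92 ± 0.11, the collapsin response mediator Dpysl4 by -3.54 ± 0.26 and coactosin-like Cotl1 by -2.03 ± 0.08. Fscn1 stood at 1074, 805 and 899 after lesion and at 316, 250.01 and 309.7 after sham surgery, so it rose with injury (1.66 ± 0.12, adjusted p = 6.74e-07) and still lay far below the embryo (7107, 7035 and 6706 at E12.5). Spinal cord neurons also express Dcx, Marcksl1 and Fscn1 in the embryo.

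Of 14 tubulins tested, 9 were higher after lesion, 3 lower and 2 not called (median 1.06), against 40.3% higher and 40.7% lower over all genes. Tuba4a, an alpha-tubulin isotype, stood at 5352, 5184 and 4969 after lesion and 169.6, 183 and 208 at E12.5, a difference of 4.79 ± 0.09. It was higher still in sham ganglia (9019, 9177 and 8223). Tubb6 instead rose with injury: it stood at 3242, 1981 and 2643 after lesion, 498, 479.6 and 529 after sham surgery and 635, 691 and 759.8 at E12.5, with differences of 1.89 ± 0.17 from E12.5 and 2.35 ± 0.15 from sham. Tubb3, the neuronal isotype, differed from E12.5 by 2.09 ± 0.20 and Tubb4a by 2.48 ± 0.14.

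Tuba1a and Tubb2b, isotypes known from immature neurons, were not called. Tuba1a stood at 101066, 85972 and 84493 after lesion and 74761, 83036 and 53266 at E12.5, an interval of -0.00 to 0.77 (adjusted p = 0.0637; 0.0204 without the second E12.5 library, with a difference of 0.52). Tubb2b stood at 20888, 16108 and 20059 after lesion and 33701, 33942 and 17944 at E12.5, and at 11252, 10789 and 9987 after sham surgery. The third E12.5 library overlapped the lesion libraries, and the gene was not called (adjusted p = 0.0739). Without that library it was lower after lesion (-0.84, adjusted p = 4.35e-05). Tubb5 was lower after lesion by a small amount (-0.43 ± 0.09), and the larger negative differences were those of Tubb1, the platelet isotype (-3.10 ± 0.38), and of the centrosomal gamma-tubulin Tubg1 (-0.72 ± 0.11).

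All 8 intermediate filament genes tested differed, 5 higher and 3 lower after lesion (80.9% of all genes differed). Nefh, the heavy neurofilament of large axons, stood at 47849.7, 50001 and 40539 after lesion, 78822, 87527 and 76306 after sham surgery and 238, 290.4 and 433 at E12.5. It fell with injury (-0.81 ± 0.09, adjusted p = 1.01e-05) and yet remained far above the embryo (7.20 ± 0.20, adjusted p = 4.79e-08). Nefl differed from E12.5 by 2.85 ± 0.10, Nefm by 2.02 ± 0.17 and peripherin (Prph) by 3.81 ± 0.17. The glial filament Gfap differed by 4.77 ± 0.47, with 166, 61.8 and 75.7 after lesion and 23.6, 19.7 and 20.6 after sham surgery. Filaments of immature cells were on the other side. Ina, alpha-internexin, stood at 6415, 7479.5 and 4575 at E12.5 and 793, 695 and 741 after lesion, and Nes, the nestin of neural progenitors, at 18665, 17396 and 10104 at E12.5 and 1092, 1114 and 875 after lesion. Their differences were -3.02 ± 0.17 and -3.86 ± 0.23, and that of vimentin (Vim) was -0.64 ± 0.19 (adjusted p = 0.0124, and 0.054 without the second lesion library). After sham surgery Ina stood at 675, 611 and 619.9, so the lesioned ganglion lay near sham and not near the embryo.

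**Figure D5:**
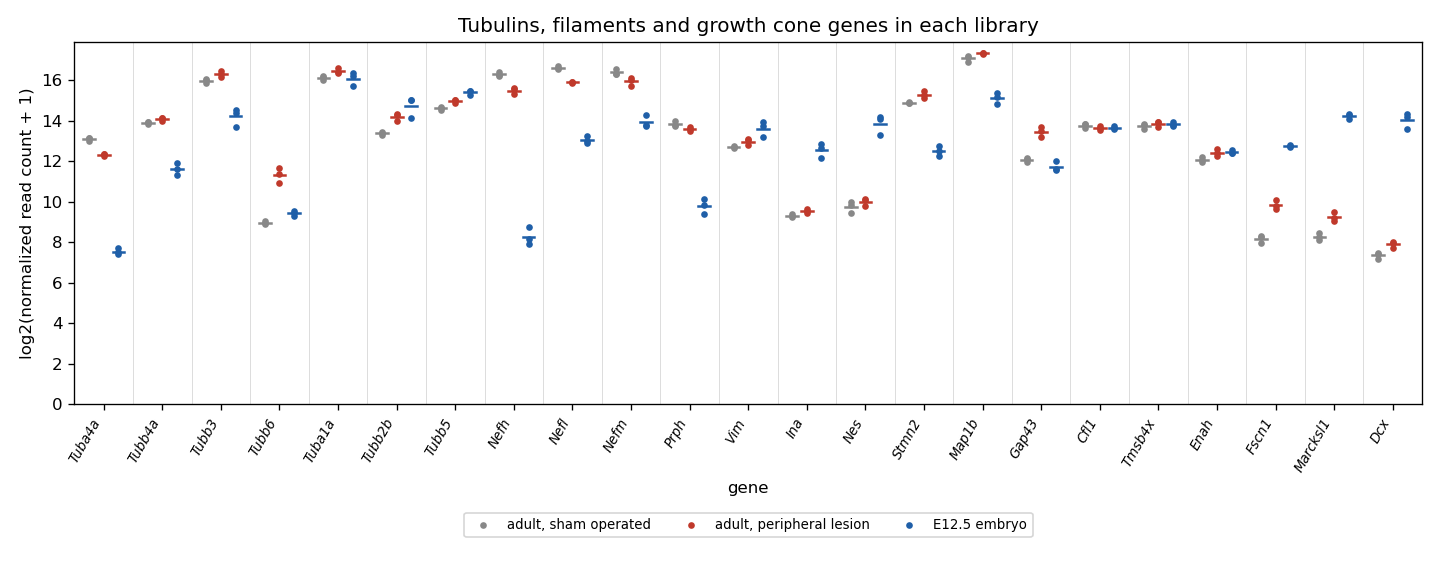
Levels of tubulins, intermediate filaments and growth cone genes (log2 of normalized reads + 1, vertical axis) in each sham, lesion and E12.5 library, 1 point per library, with the group mean as a bar. For Cfl1 and Tmsb4x the 3 groups lie together, for Nefh and Tuba4a the E12.5 points lie far below both adult groups, and for Dcx, Marcksl1 and Nes far above.

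Of 30 genes listed here as possible brakes on axon growth, 14 were higher after lesion, 11 lower and 5 not called (median 0.41). Over all genes 40.3% were higher and 40.7% lower. Klf9, a Krüppel-like factor that represses axon growth in mature neurons, stood at 1848, 1659.9 and 1793 after lesion, 1602, 1579.8 and 1684 after sham surgery and 54.9, 58.5 and 49.7 at E12.5. Lesion and sham values lay together (difference 0.12 ± 0.07, adjusted p = 0.175), far above the embryo (5.00 ± 0.10, adjusted p = 1.90e-08). Rtn4rl1, a relative of the Nogo receptor, differed from E12.5 by 2.29 ± 0.16, the myelin inhibitor co-receptor Ngfr by 1.63 ± 0.10 and the semaphorin receptor Plxna4 by 1.68 ± 0.14.

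The alpha2delta subunits carry calcium channels to the membrane, and Cacna2d1 and Cacna2d2 are on the list. The series concerns Cacna2d2, and whether Cacna2d1 holds back growth was not tested. Cacna2d1 stood at 13552, 9572 and 11007 after lesion, 3681, 3232 and 4038 after sham surgery and 905, 1010.0 and 963 at E12.5. The 3 groups did not overlap; the difference from E12.5 was 3.55 ± 0.13 (adjusted p = 1.00e-07) and that from sham 1.63 ± 0.12 (adjusted p = 3.80e-06). Cacna2d2, the subject of the series, stood at 204, 256 and 206 after lesion, 322, 314 and 337 after sham surgery and 319, 403 and 221 at E12.5. Lesion and E12.5 values overlapped, and the difference of -0.47 ± 0.21 was not called (95% interval -0.96 to 0.03, adjusted p = 0.0741), while against sham it fell (-0.55 ± 0.11, adjusted p = 0.00125). Without the third E12.5 library, the one that overlaps, the difference from E12.5 was -0.70 and called (adjusted p = 0.00126), and edgeR on the recovered reads called it with all libraries (adjusted p = 0.0464). At E17.5 it averaged 949 ± 116 (SD, n = 3). The difference between the genes' differences was not tested.

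Other genes of this list were higher in the embryo. Epha4, an ephrin receptor, stood at 1658, 1469 and 1437 at E12.5, 101, 107 and 95.4 after lesion and 96.4, 122 and 133 after sham surgery, a difference of -3.90 ± 0.10. Tnfrsf19, a co-receptor for myelin inhibitors also called TROY, stood at 1322, 1377 and 1112 at E12.5 and 139, 124 and 101 after lesion, a difference of -3.39 ± 0.14. The semaphorin receptor Plxna1 differed by -1.52 ± 0.12, the proteoglycan receptor Ptprs by -0.74 ± 0.09 and the kinase Rock1 by -0.91 ± 0.08, against 0.48 ± 0.07 for Rock2. Rtn4r, the Nogo receptor itself, was not called (interval -0.02 to 0.78).

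Genes of embryonic growth were nearly all lower after lesion. Of 21 tested, 19 were lower, 14 of them at least 4-fold, 1 was higher and 1 not called, and the median was -3.28. Over all genes 40.7% were lower and 9.82% at least 4-fold lower. Members near 0 after lesion, such as Igf2bp1, pass the filter only through E12.5. Igf2bp1, an oncofetal mRNA-binding protein that carries beta-actin mRNA to growth cones, stood at 3538, 3167 and 3432 at E12.5, 7.74, 1.67 and 2.31 after lesion and 1.97, 1.46 and 1.15 after sham surgery. The lesion values are a handful of reads, and the fitted difference of -9.63 ± 0.40 (adjusted p = 2.28e-07) depends on the pseudocount at that level. Hmga2, the chromatin protein of proliferating embryonic cells, stood at 3193, 2981 and 7595 at E12.5 and 15.5, 5.01 and 1.73 after lesion. Its difference of -9.33 ± 0.63 was -10.01 without the first lesion library and -8.71 without the third. Lin28b, which blocks maturation of let-7 microRNAs, was lower but still present after lesion: it stood at 123, 129 and 108 after lesion against 401, 445 and 363 at E12.5, a difference of -1.74 ± 0.12.

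Of the imprinted growth genes of this list that were tested, only Meg3 was higher after lesion. Igf2, the insulin-like growth factor of the embryo, stood at 16514, 19147 and 61295 at E12.5, 2084, 2889 and 3481 after lesion and 1775, 1945 and 1562 after sham surgery. The third E12.5 library was far above the other two; the difference was -3.28 ± 0.46, and -2.69 without that library. Cdkn1c, an imprinted inhibitor of cell division, differed by -6.43 ± 0.17, the signalling adaptor Grb10 by -3.48 ± 0.18 and Peg10 by -4.53 ± 0.28. Meg3, an imprinted long noncoding RNA, was the member on the higher side. It stood at 39745, 37747 and 34326 after lesion, 20814, 27346 and 25528 after sham surgery and 7989, 10552 and 9842 at E12.5, a difference of 1.99 ± 0.12. Of the Myc factors, Mycn stood at 1214, 1119.8 and 1089 at E12.5 and 89.8, 100.2 and 82.7 after lesion (-3.64 ± 0.10), while Myc was not called (interval -0.61 to 0.15, adjusted p = 0.218).

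All 41 DNA replication genes and all 35 mitosis genes tested were lower after lesion, 36 and 35 of them at least 4-fold. Over all genes 40.7% were lower and 9.82% at least 4-fold lower. Members near 0 in adult ganglia pass the filter only through E12.5, so these counts were partly fixed by it. With lesion and sham libraries, 35 of the 41 listed replication genes and 25 of the 36 listed mitosis genes were tested. The medians were -3.39 and -5.21. The B-type cyclins, which drive entry into mitosis, are shown with their promoters, because the members of this list moved together and mitotic promoters are known for pairs of CCAAT boxes and for the element called CHR. Sequences run 5′ to 3′ from 250 bases before to 20 after the RefSeq start (GRCm38.p6, minus strand; Ccnb1 at chr13:100786467-100786736, Ccnb2 at chr9:70421535-70421804). Matches to CCAAT and TTTGAA, on either strand, are in capitals.
Ccnb1 promoter: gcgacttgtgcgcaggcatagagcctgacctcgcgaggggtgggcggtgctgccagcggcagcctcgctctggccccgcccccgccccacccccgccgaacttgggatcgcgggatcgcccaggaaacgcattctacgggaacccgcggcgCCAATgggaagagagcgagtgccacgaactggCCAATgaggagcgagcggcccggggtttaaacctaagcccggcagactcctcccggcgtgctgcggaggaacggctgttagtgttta
Ccnb2 promoter: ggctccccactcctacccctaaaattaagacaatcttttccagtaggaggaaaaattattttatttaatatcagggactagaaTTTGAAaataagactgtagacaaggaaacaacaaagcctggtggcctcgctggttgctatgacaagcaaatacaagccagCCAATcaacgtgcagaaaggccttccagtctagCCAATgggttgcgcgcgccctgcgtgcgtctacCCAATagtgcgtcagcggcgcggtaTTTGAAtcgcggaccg
The Ccnb1 window held CCAAT at -99 to -95 and at -67 to -63 and no TTTGAA. For CHR only the letters TTTGAA were searched, and other forms of the element were not looked for. The Ccnb2 window held CCAAT at -87 to -83, -54 to -50 and -21 to -17, and TTTGAA at -167 to -162 and at 5 to 10 after the start. Of the 35 mitosis genes 28 matched the RefSeq table, with 30 windows of 300 bases. TTTGAA occurred in 22 of these (73.3%) and CCAAT in 22 (73.3%), against 17.9% and 37.4% of all 32851 windows. In the 36 windows of 31 DNA replication genes TTTGAA occurred in 4 (11.1%) and CCAAT in 20 (55.6%). The shares are descriptions of letters, without a test.

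Ccnb1 stood at 1350.4, 1209 and 1228 at E12.5, 15.5, 10.0 and 9.25 after lesion and 13.8, 7.31 and 5.73 after sham surgery. Ccnb2 stood at 307, 287 and 288 at E12.5 and 4.64, 0 and 1.73 after lesion. Neither adult group came near the embryo; the differences were -6.68 ± 0.19 (adjusted p = 4.41e-08) and -6.89 ± 0.56 (adjusted p = 8.72e-06). That of Ccnb2, at a few reads after lesion, was -7.48 without the first lesion library and -6.23 without the second. Uhrf1, which copies DNA methylation at the replication fork, stood at 1740.1, 1613 and 1604 at E12.5 and 21.7, 23.4 and 19.1 after lesion, and Rrm2, the ribonucleotide reductase subunit of S phase, differed by -5.77 ± 0.15. Of 31 neurogenesis and Notch genes tested, 23 were lower and 6 higher after lesion (40.7% and 40.3% of all genes), with a median of -1.57. Without the second lesion library 3 were higher, and 10 more genes of the list were left out for replaced values. Dll1, a Notch ligand of newborn neurons, stood at 1481, 1444 and 603 at E12.5 and 22.4, 23.4 and 18.5 after lesion, a difference of -5.61 ± 0.33, and the neuronal factor Nhlh2 differed by -5.27 ± 0.27. Dll1 was lower in the third E12.5 library, as were Sox2 and Sall1, and neural tube progenitor RNA was given above.

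Genes of mature sensory function were higher after lesion in most lists. Of sodium channel genes 12 of 15 were higher and 2 lower, of potassium channels 39 of 45 and 3, of nociceptor and touch receptors 31 of 35 and 2, of synaptic vesicle genes 36 of 42 and 2, and of neuropeptides 19 of 26 and 4. Their medians were 2.62, 3.13, 4.16, 2.54 and 4.18. Over all genes 40.3% were higher and 40.7% lower. Members near 0 at E12.5 pass the filter only through the lesion libraries, so these counts were partly fixed by it. Against sham, the same lists had more members lower than higher after lesion: 10 of 15 sodium channels fell and 0 rose, 24 of 45 potassium channels fell and 5 rose, and 21 of 35 nociceptor and touch receptors fell and 6 rose. Of 41 synaptic vesicle genes tested 14 fell and 7 rose, and of 23 neuropeptides 12 fell and 8 rose (20.3% and 21.0% of all genes). Scn11a, the sodium channel of pain neurons called Nav1.9, stood at 3297, 5524 and 4342 after lesion, 5188, 5100.4 and 5170.0 after sham surgery and 14.3, 7.07 and 28.1 at E12.5. The difference was 8.13 ± 0.42 (adjusted p = 7.53e-07), and against sham it was not called (adjusted p = 0.212). Scn3a, the embryonic sodium channel known to return after nerve injury, stood at 1496, 1546 and 964 at E12.5, 214, 175 and 201 after lesion and 152, 164 and 169 after sham surgery. The difference from sham was not called (0.28 ± 0.12, adjusted p = 0.0685), while that from the embryo was (-2.73 ± 0.18, adjusted p = 3.05e-06).

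Mrgprd, a receptor of nonpeptidergic skin pain fibres, stood at 1781, 3054 and 2393 after lesion, 4318, 4372 and 4369 after sham surgery and 7.14, 6.42 and 14.4 at E12.5. The heat and capsaicin receptor Trpv1 stood at 447, 518 and 668 after lesion, 762, 724 and 713 after sham surgery and 3.29, 1.28 and 2.16 at E12.5. Their differences from E12.5 were 7.91 ± 0.31 and 7.42 ± 0.28. The potassium channel Kcnk18, called TRESK, differed by 6.46 ± 0.43, and had 0, 0 and 1.44 normalized reads at E12.5. Piezo1, a mechanically gated channel of nonneuronal cells and some neurons, was on the other side (-2.11 ± 0.26). Vamp1, the vesicle SNARE synaptobrevin 1, stood at 8356, 9245 and 7392 after lesion, 15254, 16856 and 15711 after sham surgery and 134, 144 and 153 at E12.5, and the vesicular glutamate transporter Slc17a7 differed by 5.61 ± 0.14. Slc18a3, the acetylcholine transporter of motor neurons, went the other way with 235, 236 and 231 at E12.5 and 1.55, 0 and 0.578 after lesion; motor neurons lie in the spinal cord. Among neuropeptides, Sst (somatostatin) was lower after lesion (-2.15 ± 0.37).

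Of 19 calcium channel genes 13 were higher and 4 lower after lesion (40.3% and 40.7% of all genes). Cacna1g, the T-type channel Cav3.1, stood at 622, 632 and 1102 at E12.5 and 18.6, 25.05 and 30.6 after lesion, a difference of -4.91 ± 0.27. The auxiliary subunit Cacng4 differed by -4.48 ± 0.29 and Cacnb4 by 3.18 ± 0.18.

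Of 30 sensory identity factors tested, 13 were higher and 13 lower, against 40.3% and 40.7% of all genes. Runx1, which directs nociceptor fate, stood at 1177, 1548 and 1263 after lesion and 56.5, 92.5 and 137 at E12.5 (3.87 ± 0.29), and Etv1, a factor of proprioceptors, differed by 2.48 ± 0.10. Eya1 (-2.98 ± 0.37), Bcl11b (-2.41 ± 0.16) and Isl1, the LIM factor of all these neurons (-0.95 ± 0.12), were lower after lesion. Isl1 stood at 964, 1090.5 and 930.3 after lesion, 1573, 1632 and 1664 after sham surgery and 1742, 2272 and 1785 at E12.5, so the lesion libraries were the lowest of the 3 groups.

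Of trophic receptors and ligands, 27 of 38 were higher after lesion and 9 lower (40.3% and 40.7% of all genes). Fgf1 stood at 10805, 12518 and 10552 after lesion, 17826, 18985 and 19187 after sham surgery and 42.3, 38.5 and 69.2 at E12.5, a difference of 7.83 ± 0.20. The oncostatin M receptor Osmr differed by 5.35 ± 0.17, the GDNF receptor Ret by 4.75 ± 0.14 and Gfra1, its co-receptor, by 2.31 ± 0.14. Fibroblast growth factor receptors Fgfr2 (-4.03 ± 0.15) and Fgfr3 (-4.51 ± 0.32) were lower after lesion, while Fgfr1 was higher by a smaller amount (0.71 ± 0.17, adjusted p = 0.0053).

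Axon guidance genes were more often lower than higher after lesion: of 71 tested, 39 were lower and 25 higher (median -0.80). The shares over all genes were 40.7% lower and 40.3% higher. Epha7 stood at 1369.6, 1616 and 1922 at E12.5 and 76.6, 71.8 and 72.3 after lesion, and its ligand family member Efna4 differed by -4.38 ± 0.22. Plxnb3, a plexin, differed by 5.72 ± 0.55, with 285, 247 and 251 after lesion and 3.29, 1.28 and 11.5 at E12.5 (6.38 without the third E12.5 library), and the secreted semaphorin Sema3b by 5.14 ± 0.18. Axonal transport genes were on the higher side, 31 of 36 with 4 lower. Dynlt3, a dynein light chain, stood at 6522, 6735 and 6327 after lesion and 332, 317 and 363 at E12.5, while Dynlt1a, of the same family, stood at 173, 144 and 156 after lesion and 1141, 1135 and 1008 at E12.5. The differences of 4.27 ± 0.08 and -2.79 ± 0.10 have opposite signs; reads shared by Dynlt1 copies are uncertain. Snph, syntaphilin, which anchors axonal mitochondria, differed by 3.96 ± 0.12 and the kinesin Kif21b by -2.91 ± 0.15.

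Regulators of RNA and chromatin were more often lower than higher after lesion. Of 39 splicing and RNA-binding genes 21 were lower and 13 higher, and of 41 chromatin genes 34 were lower and 6 higher. The shares over all genes were 40.7% lower and 40.3% higher. Nova1, a neuronal splicing factor, stood at 2379, 2466 and 1386 at E12.5 and 131, 140.3 and 119 after lesion, and the progenitor RNA-binding protein Msi1 differed by -4.73 ± 0.33. Cpeb1, which controls polyadenylation in the cytoplasm, went the other way with 2395, 2657 and 2571 after lesion and 23.1, 24.4 and 31.0 at E12.5 (6.56 ± 0.13). The 2 catalytic subunits of Polycomb complex PRC2 exchanged places. Ezh2 stood at 644, 601 and 555 at E12.5 and 24.0, 15.0 and 33.0 after lesion (-4.65 ± 0.26), and Ezh1 at 152, 144 and 186 at E12.5 and 1001, 980.3 and 1018 after lesion (2.64 ± 0.11).

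Of 25 Hox genes tested, 18 were lower after lesion and 5 higher (Hoxa10, Hoxc10, Hoxd1, Hoxd9 and Hoxd10), against 40.7% and 40.3% of all genes. Another 4 were left out for replaced values. Hoxb8 stood at 5118, 4737 and 2854 at E12.5, 118, 157 and 93.7 after lesion and 226, 236 and 240.3 after sham surgery, a difference of -5.08 ± 0.25, and Hoxc8 differed by -4.37 ± 0.11. Of the 5 higher genes, Hoxc10 stood at 182, 190.4 and 225 after lesion and 8.23, 97.0 and 3.60 at E12.5, and Hoxd9 at 282, 292 and 251 after lesion and 12.6, 81.0 and 11.5 at E12.5. The second E12.5 library was higher in both than the other two. The difference of Hoxc10 was 3.63 ± 0.98, and 4.93 without the second and 2.73 without the third E12.5 library; that of Hoxd9 was 3.51 ± 0.65, and 4.40 without the second. Adult ganglia were L4-5 and embryonic ganglia lumbar without a level, so segment and group cannot be told apart for Hox genes.

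Genes of mitochondrial respiration were close in the 2 groups. Of 46 oxidative phosphorylation genes, 23 were not called, 18 were higher and 5 lower after lesion, and the interval lay within 2-fold for 40. Over all genes 40.3% were higher, 40.7% lower and 32.9% within 2-fold. With 1 library left out, the count of lower genes ranged from 3 to 10. Against sham, 35 of the 46 fell and 0 rose (20.3% and 21.0% of all genes). Cox6a1, a cytochrome oxidase subunit, differed by 0.77 ± 0.12 and Atp5g2, an ATP synthase subunit, by -1.10 ± 0.16. Of 24 glycolysis genes, 15 were higher and 5 lower. Eno2, the neuronal enolase, differed by 6.02 ± 0.14 and Aldoc by 5.78 ± 0.18, while Hk2, a hexokinase, stood at 501, 465 and 505 at E12.5, 101, 102 and 105 after lesion and 44.3, 46.8 and 47.6 after sham surgery. Hk2 rose with injury (1.13 ± 0.15, adjusted p = 5.77e-05) and remained below the embryo (-2.25 ± 0.10). Of 23 cholesterol genes, 18 were higher and 3 lower, with Hsd17b7 among the higher ones (2.47 ± 0.14).

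Immediate early genes were higher in 17 of 26 and lower in 5, and stress response genes higher in 27 of 39 and lower in 6. Fos stood at 209.8, 145 and 136 after lesion, 107, 56.3 and 83.2 after sham surgery and 8.78, 10.3 and 13.0 at E12.5 (3.81 ± 0.24). Ier2, also an immediate early gene, was lower after lesion (-2.35 ± 0.22). The small heat shock protein Hspb8 stood at 6053, 5699.5 and 6367 after lesion and 98.8, 115 and 108 at E12.5 (5.80 ± 0.09), and Pdia4, a protein disulfide isomerase, differed by -1.82 ± 0.16. Of 30 cell death and survival genes 12 were higher and 13 lower, near the 40.3% and 40.7% of all genes. Cdkn1a, the p53 target p21, stood at 6263, 4169.9 and 5266 after lesion, 1418, 1532 and 1376 after sham surgery and 197, 191 and 418 at E12.5 (4.36 ± 0.30), while Trp53 itself stood at 194, 205 and 176 after lesion and 752, 724 and 833 at E12.5, lower after lesion.

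Of 37 extracellular matrix genes 11 were higher and 16 lower, against 40.3% and 40.7% of all genes. Col5a3 stood at 2860.0, 1979 and 2279 after lesion, 526, 600.2 and 647 after sham surgery and 11.0, 9.64 and 12.3 at E12.5 (7.62 ± 0.16). Vcan, the proteoglycan versican, stood at 10112, 10125 and 23727 at E12.5 and 225, 170.3 and 217 after lesion (-6.04 ± 0.31), and Lama1, a laminin chain of the early embryo, differed by -4.31 ± 0.28. Fibroblast marker sums were 13144 to 15257 after lesion and 9651 to 19118 at E12.5, overlapping. Of integrins and proteases 16 of 36 were higher and 12 lower.

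All 31 interferon and antigen presentation genes tested were higher after lesion, and 14 of 22 cytokine and complement genes were, with 4 lower. Against E12.5, 40.3% of all genes were higher and 40.7% lower. Members near 0 at E12.5, such as Cd74, pass the filter only through the lesion libraries, so the counts of immune genes and markers in this paragraph were partly fixed by it. Cd74, the invariant chain of MHC class II, stood at 1012, 792 and 1025 after lesion, 534, 446 and 473 after sham surgery and 3.84, 2.57 and 5.77 at E12.5 (7.58 ± 0.25), and complement C4b differed by 7.50 ± 0.31. All 17 macrophage markers were higher too, with sums of 4709 to 6694 after lesion, 2363 to 2543 after sham surgery and 1046 to 1318 at E12.5. Lyz2, a macrophage lysozyme, stood at 1557, 1214 and 1322 after lesion, 715, 709.8 and 647 after sham surgery and 58.7, 60.4 and 73.5 at E12.5. The macrophage sums thus did not overlap between the 3 groups. The interferon and antigen presentation sums of lesioned (12927 to 15803) and sham ganglia (11355 to 16281) did overlap, and 6 of the 31 genes rose against sham and 0 fell (21.0% and 20.3% of all genes). The part of macrophage number in the immune lists was not tested.

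Glial markers were mostly higher in the adult ganglion. All 15 myelinating Schwann cell markers were higher after lesion than at E12.5, and 11 of 15 satellite glia markers were (40.3% of all genes). Markers near 0 at E12.5, such as Cldn19, pass the filter only through the lesion libraries, so these counts were partly fixed by it. Cldn19, the claudin of myelin, stood at 1225, 1438 and 1073 after lesion, 1129, 1095 and 1045 after sham surgery and 6.04, 7.71 and 5.05 at E12.5 (7.43 ± 0.19), and S100b differed by 8.07 ± 0.28. Sox2 (-3.22 ± 0.40) and the gap junction protein Gja1 (-2.37 ± 0.11), counted among satellite glia, were lower after lesion. Both are also known in neural tube progenitors.

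Among all genes tested, those with the 10 largest positive differences and at least 100 normalized reads in the higher group included Thy1, a surface protein of mature neurons. It stood at 18363, 14248 and 16904 after lesion, 14604, 16109 and 13889 after sham surgery and 35.1, 18.6 and 75.0 at E12.5 (8.76 ± 0.42). The signalling gene Rasgrf2 differed by 8.55 ± 0.38, the serpins Serpina3n and Serpinb1a by 8.49 ± 0.44 and 8.46 ± 0.26, and the glial receptor Gpr37l1 by 8.23 ± 0.26. Among the 10 largest negative differences were the transcription factors Uncx, Sall1 and Irx1 (-8.66 ± 0.38, -8.23 ± 0.48 and -7.64 ± 0.42) and Slc32a1, the transporter of inhibitory transmitters (-7.44 ± 0.52). Slc32a1 stood at 317, 342 and 128 at E12.5 and 0, 1.67 and 0 after lesion; it is a gene of inhibitory spinal cord neurons.

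By difference in mean level, the 10 genes furthest above E12.5 after lesion included Map1b, Stmn2, Tubb3, Nefl, Nefm and Nefh, all described above; Nefh fell against sham. Of the others, Map1a, a microtubule-associated protein of mature neurons, differed by 4.13 ± 0.12, Prune2 by 6.87 ± 0.18, the scaffold Akap12 by 2.17 ± 0.12 and the 14-3-3 protein Ywhag by 2.59 ± 0.09. On the embryonic side were the translation elongation factor Eef1a1, at 53220.4, 53705 and 55841 at E12.5 and 18694, 17803 and 19422 after lesion (-1.54 ± 0.08), and Nrep, at 18901, 19186 and 18497 at E12.5 and 558, 576 and 548 after lesion (-5.07 ± 0.07). Ptma (prothymosin) differed by -2.72 ± 0.08, the ubiquitin ligase Nedd4 by -1.25 ± 0.08 and the growth factor binding protein Igfbp5 by -1.86 ± 0.29.

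The Y-linked genes Ddx3y (-7.31 ± 0.36) and Kdm5d (-7.11 ± 0.42) were also among the 10 largest negative differences. Ddx3y stood at 277, 251 and 269.6 at E12.5, 0.774, 1.67 and 0 after lesion and 0, 0 and 0 after sham surgery. Uty and Eif2s3y were listed at 0 in every lesion and sham library, while the E12.5 libraries held Uty at 103, 96.4 and 84.3. Xist, transcribed from the inactive X chromosome, was present in both groups, at 10088, 10294 and 8619.6 after lesion and 19855, 23532 and 29711 at E12.5. The lesion libraries thus held Xist and next to no reads of these Y-linked genes, and the E12.5 libraries held both. The labels do not give the sexes of the animals, and for every gene the sex of the tissue, its age and its segment cannot be told apart.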

How the data were processed

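RNA-seq was analysed from 6 libraries, 3 of adult ganglia after peripheral lesion and 3 of E12.5 ganglia, with 3 sham and 3 E17.5 libraries for background levels. The submitters' processing notes name TopHat and mm10; the sources used here do not say how reads were filtered and counted, or against which annotation. The table deposited by the authors holds a signal for each of 20782 genes in each library: counts that had been divided by 1 factor per library, as read from the values, since 339603 of 339603 values (100%) of up to 1000 reads came out as whole reads within a tolerance of 0.1. The unit differed from raw counts or FPKM, so the test written for normalized values was used. All 24 columns were mapped to samples, with 0 left over.

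Lesion and E12.5 were compared with limma 3.58.1 (R 4.3.3) on log2(value + 1), which understates differences of low genes, with eBayes set to trend and robust, no covariates, and only these 6 libraries. A gene was tested where at least 3 of the 6 had a value of at least 10. P-values were adjusted by Benjamini-Hochberg with a threshold of 0.05. Lesion against sham was fitted in the same way. A gene was called within 2-fold where its 95% interval lay between -1 and 1. Genes with a value equal to a 20% trimmed mean over all libraries, or with 1 value shared by at least 4 lesion and embryonic libraries, were left out (113). Values put in place of low counts, where the trimmed mean was 5 or less in all 3 libraries of a group, were not looked for.

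The members and the gene lists were chosen with earlier results of these data known. Named genes are the 10 largest differences and the 10 largest differences in mean level in each direction, the 2 largest per list and direction (higher group mean at least 100), and members of the growth, cytoskeleton and regeneration lists; Uty, Eif2s3y and Xist, and other list members with values (Fgfr1 among them), were added after their values were seen; a few genes that the rule takes are not reported here. Alternatives were edgeR 4.0.16 with TMM and DESeq2 1.42.0 on recovered reads, other pseudocounts, filters and scalings, all 24 libraries in 1 fit, replaced values kept, and each library left out. On simulated counts for 14678 genes, the limma test found 87 of 98 genes changed by a log2 size of 1 and 100 of 100 changed by 2, and called 15 of 14480 unchanged genes. The simulation gave every gene the same dispersion, changed few genes and had no library standing apart. In the data 80.9% of genes were called and the third E12.5 library stood apart, so these rates are not those of the comparison.

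The titles carry library numbers whose meaning the labels do not give; they were not used as batches. Promoter sequences are from RefSeq (GRCm38.p6), matched by symbol.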

Additional observations from a re-analysis of the deposited data

How the results depend on the processing

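The counts over all tested genes given here stayed within 1.5 times of their reported values under every alternative run. Genes higher after lesion numbered 5129 (value minimum of 50) to 6751 (no filter), and genes lower 5426 to 6447. With edgeR they were 5905 and 6097, with DESeq2 5968 and 5843. Without each library in turn, 5670 to 6108 were higher and 5733 to 6111 lower. Genes at least 4-fold higher numbered 1786 (pseudocount 10) to 2677 (no filter). Genes within 2-fold numbered 4374 to 5513 (4692 with DESeq2); edgeR was run without intervals and gives no such count. Of 178 genes named with a difference, 167 kept direction and call in all alternatives. Of 1504 list counts under alternatives, 25 moved by over 1.5 times. Among them were the oxidative phosphorylation genes lower after lesion (5; 3 with all 24 libraries in 1 fit, and 3 to 10 with 1 library left out) and the neurogenesis and Notch genes higher (6; 3 without the second lesion library). With a value minimum of 50, the lower neuropeptides went from 4 to 2 and the lower immediate early genes from 5 to 3.

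Genes with a difference near 0 changed sign. With DESeq2, Cfl1 was 0.0041, Enah 0.010 and Rhoa 0.020; Dclk1 was -0.00044 with upper-quartile scaling and -0.017 with edgeR. With 1 library left out, Cfl1 ranged from -0.075 to 0.021, Dclk1 from -0.087 to 0.095, Enah from -0.11 to 0.055, Rhoa from -0.060 to 0.089 and Tmsb4x from -0.0063 to 0.11. Cacna2d2 was called with edgeR (-0.54, adjusted p = 0.0464) and with all 24 libraries in 1 fit (-0.47, adjusted p = 0.0412), not with DESeq2. Tubb2b was called with edgeR (-0.60), DESeq2 (-0.56) and 24 libraries (-0.53), and Tuba1a with DESeq2 (0.39) and 24 libraries (0.38). The causes were not tested.

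No paired analysis was possible because the replicate numbers were given in accession order and pair no libraries. Leaving out genes by a value shared between groups was chosen after seeing the data. Values of a few normalized reads carry a large counting error, so differences such as that of Igf2bp1 are loosely determined.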

Other observations

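Some genes left out for replaced values had large measured values beside the replaced ones. Hoxb9, a Hox gene of the caudal trunk, stood at 16889, 14359 and 418 normalized reads in the E12.5 libraries, the last a trimmed mean, and at 559, 399 and 372 after lesion. Bcl11a, a transcription factor of sensory and spinal neurons, stood at 2178, 2198 and 69.9 at E12.5, the last again a trimmed mean, and at 44.1, 66.8 and 43.4 after lesion. The imprinted gene Dlk1 stood at 1452, 150.3 and 151 at E12.5, where the second and the third values are replaced, and at 17.8, 11.7 and 8.09 after lesion. H19, the noncoding RNA beside Igf2, stood at 3538, 26737 and 3537 at E12.5 and at 913, 1052 and 3538 after lesion, with nearly the same value in a lesion library and in 2 E12.5 libraries. Replaced values cannot be compared with the measured ones beside them. Over the whole table, 105 genes had such values at E12.5 (1 library in 40 genes, 2 in 39 and 3 in 26), 32 at E17.5, 10 after lesion and 3 after sham surgery.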
